A study of Drosophila melanogaster with 2 samples.

Results

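The genes described here encode the translation factors and the aminoacyl-tRNA synthetases of Drosophila melanogaster. A gene was a member if its symbol starts with eIF, eEF or eRF, or ends in RS or RS-m after the name of an amino acid. Of 13945 protein-coding genes on the main chromosome arms in Ensembl release 115, 89 were members, made up of 44 initiation factor genes (eIF), 8 elongation factor genes (eEF), 2 release factor genes (eRF), 20 synthetase genes with no suffix and 15 with the suffix -m. The suffix was read as mitochondrial and its absence as cytosolic, by symbol alone, although a gene can serve both compartments.

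Binding of HLH3B was mapped by chromatin immunoprecipitation sequencing (ChIP-seq) in whole embryos 8 to 24 hours old. All embryos were of the strain HLH3B-GFP, a transgenic line that makes HLH3B fused to eGFP, and the sample descriptions state that the pull-down used an antibody to GFP. The antibody field of the labels names HLH3B instead, so a pull-down of untagged HLH3B cannot be told apart. The series holds 1 group, with 2 biological replicates and no other condition. The promoter that drives the fusion, and whether untagged HLH3B is still made, are not given in the labels, and the control experiment was not analysed here. Whole embryos hold all tissues, so the cells in which a site was bound cannot be told apart, and binding by HLH3B cannot be told apart from a general pull-down at active promoters.

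HLH3B is a basic helix-loop-helix protein of the Tal1 type, a family whose vertebrate member Tal1 acts in blood formation together with GATA factors and binds E-boxes. Translation starts when eIF2 brings the initiator tRNA to the small ribosomal subunit, eIF3 holds the complex together and the eIF4 factors bring in the capped mRNA. Elongation factors then deliver charged tRNAs and move the ribosome, release factors end the chain at a stop codon, and each synthetase charges tRNAs with its amino acid. Many of these genes, though not all, are active in most cells, and many share a short promoter region with a neighbour on the other strand.

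A site was a peak summit in the authors' conservative list of 3846 peaks, which keeps peaks with an irreproducible discovery rate (IDR, which scores the agreement of peak ranks between replicates) of 0.01 or lower. A gene was called bound when a summit fell inside the gene or within 2000 bp upstream of it. The signal is the authors' own value for a peak, on a scale not given in the sources used here. It is used to order peaks within a list and to set the replicates side by side, and no read depth stands behind it in these files. Distances are from the summit to the nearest annotated start of the named gene.

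The genome sequence at 8 member sites is shown. They were chosen by signal with at least 1 site from each class and not from every chromosome arm, so they are not the 8 strongest. They are shown because the counts of motifs and bases given later rest on such windows, and each class of genes is represented. The windows reach 50 bp to either side of the summit and were shortened where they met a UTR. They come from the Release 6 RefSeq assembly, whose coordinates are those of dm6, and each is printed 5' to 3' on the strand of its gene. Capitals mark matches on either strand to the 7 motifs searched, which here were TTAAAA, its reverse complement TTTTAA, overlaps of both, and TATCGATA.
eIF2Bbeta (chrX:2703853-2703930, plus strand, between eIF2Bbeta and Ugalt): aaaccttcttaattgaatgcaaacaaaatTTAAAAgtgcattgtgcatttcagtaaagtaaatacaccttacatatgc
LeuRS-m (chr3L:4824945-4825045, plus strand, in an intron of Dhc64C): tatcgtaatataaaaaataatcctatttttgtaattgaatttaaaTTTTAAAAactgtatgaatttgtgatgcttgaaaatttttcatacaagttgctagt
GluProRS (chr3R:23958469-23958569, minus strand, between GluProRS and AP-1sigma): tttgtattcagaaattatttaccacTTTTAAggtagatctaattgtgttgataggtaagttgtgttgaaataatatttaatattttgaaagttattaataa
eIF5B (chr3L:3432763-3432863, minus strand, in an intron of eIF5B): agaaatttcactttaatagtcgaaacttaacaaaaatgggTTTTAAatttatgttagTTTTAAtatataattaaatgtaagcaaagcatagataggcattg
eIF3d1 (chr3R:23678696-23678796, plus strand, between GILT2 and eIF3d1): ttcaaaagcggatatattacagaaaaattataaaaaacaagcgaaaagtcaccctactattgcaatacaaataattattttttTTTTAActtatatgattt
eEF1gamma (chr3R:29220104-29220171, plus strand, up to the start of eEF1gamma): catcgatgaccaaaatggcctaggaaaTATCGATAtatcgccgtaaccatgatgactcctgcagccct
eIF4EHP (chr3R:24099112-24099212, minus strand, in an intron of eIF4EHP): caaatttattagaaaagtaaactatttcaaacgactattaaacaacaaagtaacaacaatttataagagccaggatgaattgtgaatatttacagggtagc
eRF3 (chr2L:12434221-12434321, plus strand, in an intron of SC35): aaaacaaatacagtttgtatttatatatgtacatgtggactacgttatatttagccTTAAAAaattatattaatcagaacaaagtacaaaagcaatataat
All but that of eEF1gamma were rich in A and T, with G+C contents of 19.8 to 28.2% against 47.1%. TTAAAA was in 6 of the 8, TATCGATA in that of eEF1gamma, and no searched motif in that of eIF4EHP. None of the 8 held CAGATG, the E-box of Tal1-type proteins.

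Of the 89 members, 30 were bound, or 33.7% (Wilson 95% interval 24.7 to 44.0%), and 23.1% of all protein-coding genes were bound by the same rule. Among the initiation factor genes 13 of 44 were bound (29.5%), among the elongation and release factor genes 5 of 10 (50%), among the cytosolic synthetase genes 9 of 20 (45.0%) and among the mitochondrial ones 3 of 15 (20%). Class intervals were wide, at 25.8 to 65.8% for the cytosolic and 7.05 to 45.2% for the mitochondrial synthetases, so no order of the classes can be read from them. Within the initiation factors, 3 of 16 eIF3 subunits were bound (18.8%, interval 6.59 to 43.0%) and 2 of 13 in the eIF4 cap-binding group (15.4%, 4.33 to 42.2%). These intervals hold the 23.1% of all coding genes. The small group of other factors had 5 of 7 (71.4%, 35.9 to 91.8%). Wilson intervals cover counting error only.

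The other lists gave a similar gap. In the larger series-level list 38 members (42.7%) had a summit, beside 30.6% of all coding genes. Replicate 1 alone gave 29 members (32.6%, beside 23.2%) and replicate 2 alone gave 26 (29.2%, beside 22.5%). In both replicate lists 22 of the 89 members had a summit, beside 2428 of the 13945 coding genes. By position, 24 members (27.0%) had a conservative summit within 1000 bp of a start, beside 16.9%.

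The share depended on how summits were given to genes. Where a summit counted only for the gene with the nearest start, 16 members (18.0%) remained, beside 16.5% of all coding genes. The eIF4G2 summit, equally near to a start of CG33111, was given to CG33111. With the gene body alone, 7 members (7.87%) had a summit, beside 10.2%, and these were SerRS, eEF1alpha1, eIF2A, eIF3h, eIF4EHP, eIF4G2 and eIF5B. The direction against the background thus turned with the gene body alone.

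**Figure D1:**
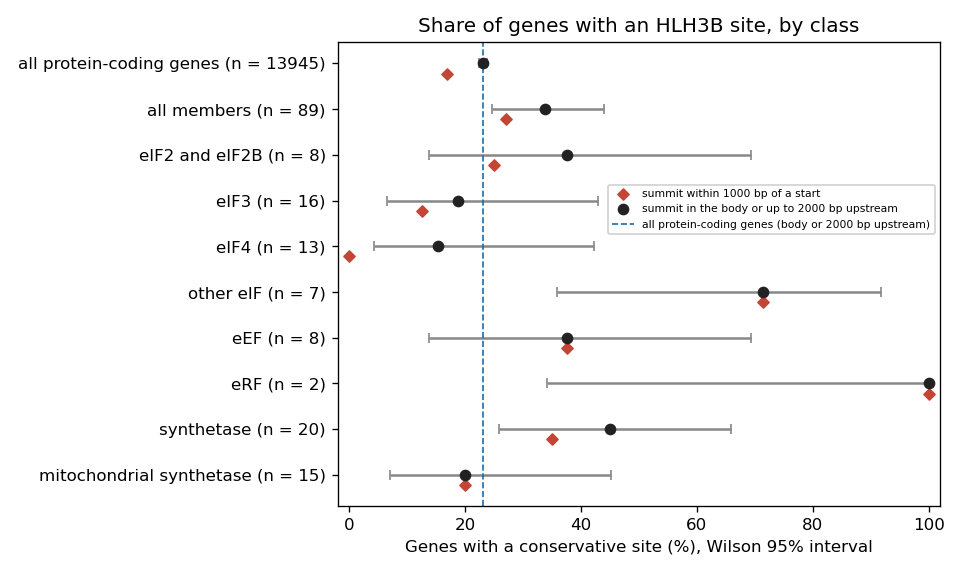
Percent of genes with a conservative HLH3B site (horizontal axis) in all protein-coding genes, in all members and in each class. Black points with bars give the share by gene body or 2000 bp upstream with its Wilson 95% interval, red diamonds the share with a summit within 1000 bp of a start, and the dashed line the 23.1% of all coding genes. The bars of the other initiation factors, the release factors and the cytosolic synthetases lie to the right of the dashed line, and those of the remaining classes cross it.

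Divergent neighbours were common among the members. A coding gene on the opposite strand started within 1000 bp upstream of the outermost start of 51 members (57.3%), beside 35.2% of all coding genes, and of 17 of the 20 cytosolic synthetase genes (85.0%). With such a neighbour 20 of the 51 members were bound (39.2%, interval 27.0 to 52.9%), beside 33.2% of coding genes with one. Without it, 10 of 38 members were bound (26.3%, 15.0 to 42.0%), beside 17.6%. Measured from any annotated start, eIF3h with its neighbour senju was added, which made 21 bound members. The split was made after the sites were seen, and each interval holds the background share beside it. The members' share was above the background on both sides of the split.

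By chromosome, bound members were spread over the large arms, with 6 of 12 on 2L (50%, beside 21.8% of all coding genes there), 8 of 21 on 2R (38.1%, beside 22.4%), 7 of 22 on 3L (31.8%, beside 23.6%) and 8 of 22 on 3R (36.4%, beside 24.1%). On X 1 of 11 was bound (9.09%, interval 1.62 to 37.7%), beside 24.0% of all coding genes on X. The single member on chromosome 4, eIF4G1, was unbound.

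The cytosolic ribosomal protein genes are the most like set with more sites, with 55 of 92 bound (59.8%, interval 49.6 to 69.2%). The mitochondrial ribosomal protein genes had 19 of 73 bound (26.0%, 17.3 to 37.1%). The difference between these sets and the members was not tested.

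The bound members held 39 distinct sites. A single site was found in 26 genes, 2 sites in eIF4EHP, and 3 or more in eIF5B, eEF1alpha1 and ValRS. The median signal was 161 at member sites and 139 at all conservative sites, and 12, 10, 7 and 10 of the member sites fell in the successive quartiles of the list from the strongest down. Member sites thus ran through the whole range of the list. All but 1 of the 39 were also in the larger series-level list, with the same signal. The exception was a weak site of eEF1alpha1.

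Summits gathered just upstream of the starts. Of all conservative sites 53.6% lay within 1000 bp of the nearest start of any gene. Of the 39 member sites 25 lay within 1000 bp of the start of their member (64.1%), and 23 of those were upstream. Their median was 105 bp upstream, with quartiles at 185 and 58 bp, and over all conservative sites near a start the median was 116 bp upstream. The upstream share was 92.0% here and 75.9% over all such sites. Sites here were measured to the member's own start, and all sites to the nearest start of any gene. The medians and upstream shares are therefore unlike measures, and their difference cannot be read as a trait of the member sites. Of all 39 summits, 18 were intergenic, 15 were in introns, 5 in 5' UTRs and 1 in a non-coding exon, and none was in a coding exon or a 3' UTR.

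Many of these sites lay nearer to the start of another gene. The nearest start belonged to a gene other than the member at 23 of 39 sites, and 30 sites also lay inside the window of another coding gene. The 23 include the eIF4G2 site, where starts of eIF4G2 and CG33111 were equally near and the tie was given to CG33111. The members whose own start was nearest were eRF1, eRF3, eEF1alpha1, eEF1gamma, eEF5, eIF2A, eIF2D, eIF3c, eIF3h, eIF5B, GluProRS, IleRS, SerRS, ThrRS, beta-PheRS and CysRS-m.

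**Figure D2:**
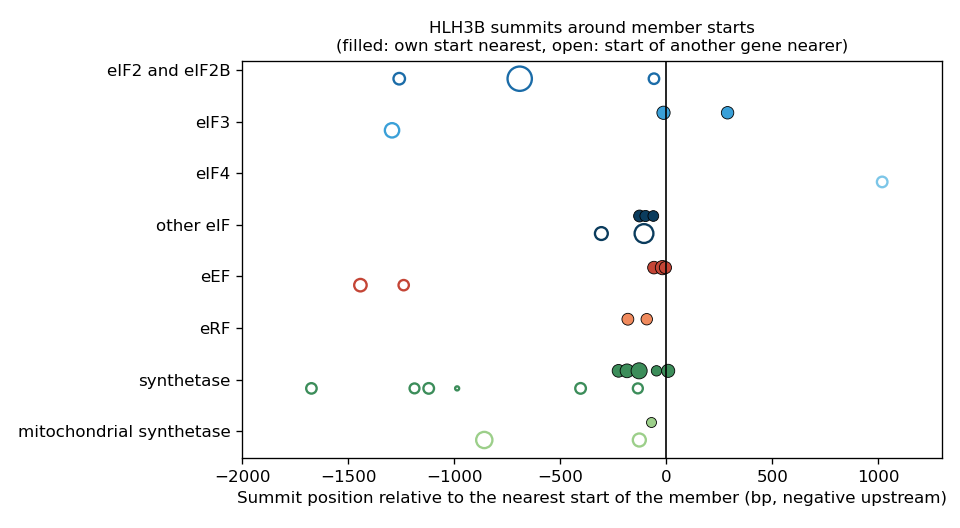
Position of each member summit relative to the nearest start of its member (horizontal axis, bp, negative upstream), by class. Filled circles mark summits whose nearest start is the member's own and open circles those nearer to another gene. The eIF4G2 circle, equally near to CG33111, is open. Larger circles have a higher signal, and the intronic sites of eIF5B and eIF4EHP more than 2000 bp from a start are not drawn. The filled circles lie close to the start, mostly just upstream, and most of those further upstream are open.

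The eIF2 and eIF2B genes, which bring in the initiator tRNA and recharge eIF2 with GTP, included the strongest site of the whole list, and 3 of 8 were bound (37.5%, interval 13.7 to 69.4%, beside 23.1% of all coding genes). eIF2Bbeta (FBgn0024996), a regulatory subunit of the exchange factor eIF2B, lies on X from 2704571 to 2706217 on the plus strand. Its intergenic site (X 2703700 to 2704059) had a signal of 2837, with 1323 in replicate 1 and 1526 in replicate 2, where it ranked 2 and 1. The summit lay 691 bp upstream of eIF2Bbeta but 28 bp upstream of Ugalt, a UDP-galactose transporter gene that points the other way, so the strongest member site is at a neighbour's start.

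The other bound genes of this class were also subunits of eIF2B. eIF2Bgamma (FBgn0034029, 2R 15542661 to 15544409), a catalytic subunit, had an intergenic site of signal 144 (2R 15541344 to 15541427), with 88.1 and 62.3 in replicates 1 and 2. Its summit lay 1259 bp upstream, with the start of Vha36-1 only 33 bp away. eIF2Balpha (FBgn0039726, 3R 29934582 to 29935888), a regulatory subunit, had an intergenic site of signal 98.3 (3R 29935778 to 29936113) 58 bp upstream and 32 bp upstream of its divergent neighbour Vps13B. In replicate 1 that site had a signal of 58.1, and in replicate 2 it was a candidate of 38.2 that missed the threshold. None of these 3 sites was nearest to the member's own start.

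The subunits eIF2alpha, eIF2beta and eIF2gamma of eIF2 itself were unbound, as were eIF2Bdelta and eIF2Bepsilon. The nearest conservative summit to eIF2alpha, the subunit whose phosphorylation slows initiation, was 42759 bp away. eIF2Bdelta had a summit of signal 68.2 in the larger series-level list alone, 842 bp upstream.

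Of 16 genes for eIF3, the scaffold of the initiation complex, 3 were bound. eIF3d1 (FBgn0040227, 3R 23680039 to 23682317), whose human counterpart can bind the mRNA cap, had an intergenic site of signal 342 (3R 23678645 to 23678828), with 156 and 181 in the replicates. That summit lay 1293 bp upstream, and 149 bp upstream of GILT2. eIF3c (FBgn0034258, 2R 17665678 to 17669275), a core subunit, had its own intergenic summit 13 bp upstream of the start (2R 17665596 to 17665721, signal 249). The replicates differed there more than at most sites, with 63.4 in replicate 1 and 181 in replicate 2.

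eIF3h (FBgn0022023, 2L 5051193 to 5053094), a peripheral subunit, had an intronic summit 289 bp downstream of its start (2L 5052386 to 5052525, signal 194), with 118 and 85.0 in the replicates. It was the member site farthest downstream among those counted as nearest to their own start. The other 13 eIF3 genes, eIF3a, b, d2, e, f1, f2, g1, g2, i, j, k, l and m, were unbound. In the larger series-level list eIF3m had a summit of signal 72.4, 122 bp upstream, and eIF3a had one of 64.6, 802 bp downstream of a start.

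In the eIF4 group, which binds and unwinds the capped mRNA, 2 of 13 genes were bound, both inside introns and neither within 1000 bp of a start. eIF4EHP (FBgn0053100, 3R 24063077 to 24108960) encodes a cap-binding protein that represses translation of chosen mRNAs in the fly embryo. Its stronger site (3R 24099087 to 24099260) had a signal of 289, with 127 and 159 in the replicates, and lay 9798 bp downstream of its start. The start of Syx1A, a gene inside the same span, was nearer at 6601 bp. The weaker intronic site had a signal of 75.8, with 46.0 in replicate 1 and a candidate of 30.4 below the threshold in replicate 2. A much stronger candidate near the start, with a signal of 1091, passed the IDR threshold but is in none of the thresholded lists, so it was not counted.

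eIF4G2 (FBgn0260634, 3R 23808285 to 23819237), a relative of the scaffold eIF4G with a role in the fly male germ line, had a summit of signal 101 (3R 23817633 to 23817968), with 44.1 and 45.1 in the replicates. It lay 1018 bp downstream of starts of both eIF4G2 and CG33111, whose introns overlap there. The main cap-binding protein and helicase genes were unbound, with the nearest summits 8486 bp from eIF4E1 and 9525 bp from eIF4A. Also unbound were eIF4B, eIF4E3, eIF4E4, eIF4E5, eIF4E6, eIF4E7, eIF4G1, eIF4H1 and eIF4H2, and no list held a summit at any of these 11 genes.

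Among the other initiation factors 5 of 7 were bound, each with a summit within 1000 bp of its start. eIF6 (FBgn0034915, 2R 23849246 to 23850301), which keeps the large subunit from joining too early, had the strongest of these sites (2R 23850276 to 23850533, signal 1012, rank 53 of the list). The replicates gave 400.1 and 612. Its summit lay 105 bp upstream of eIF6, in an exon of the non-coding gene asRNA:CR45928 and 76 bp downstream of that gene's start.

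eIF5B (FBgn0026259, 3L 3428658 to 3460977), the GTPase that joins the subunits, held 5 sites over a long gene. The strongest was intronic, 27790 bp from the start (3L 3432734 to 3432937, signal 351), with 187 and 161 in the replicates. The site at its start, 126 bp upstream of an annotated start and in a 5' UTR, had a signal of 161, with 122 in replicate 2 and a candidate of 49.5 below the threshold in replicate 1. The other 3 intronic sites had signals of 174, 83.4 and 79.8. The intronic site of 174 had 120.1 in replicate 1 and 56.1 in replicate 2, so the order of the replicates turned between sites of the same gene.

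eIF1 (FBgn0035423, 3L 3223341 to 3224650), which helps pick the start codon, had an intergenic site of signal 221 (3L 3222911 to 3223088), with 92.1 and 116 in the replicates. The summit lay 306 bp upstream of eIF1 and 75 bp upstream of RpL28, a ribosomal protein gene on the other strand. eIF2D, which can place tRNAs on the ribosome without eIF2, had a summit 98 bp upstream with a signal of 127. eIF2A, another factor that can bind initiator tRNA, had a signal of 108 in its 5' UTR, 61 bp upstream of its nearest start. Both had a higher signal in replicate 1 (80.9 and 67.9) than in replicate 2 (35.7 and 41.6), and the replicate 2 candidate at eIF2D missed the threshold. eIF5 and eIF1A were unbound, and eIF1A had a summit of signal 52.1 in replicate 1 alone, 303 bp upstream.

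Among the elongation factor genes 3 of 8 were bound (37.5%, interval 13.7 to 69.4%, beside 23.1% of all coding genes). Each had its strongest summit nearest to its own start. eEF1gamma (FBgn0029176, 3R 29220172 to 29222109), part of the factor that recharges eEF1alpha, had a signal of 337 with an intergenic summit 18 bp upstream (3R 29220028 to 29220228). The replicates gave 218 and 117. No other coding gene shares that window.

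eEF1alpha1 (FBgn0284245, 2R 11891135 to 11895762) encodes the factor that delivers charged tRNAs. Its strongest site (2R 11891896 to 11892231) had a signal of 205, with 91.9 and 96.5 in the replicates, and lay in an intron 58 bp upstream of one of the gene's annotated starts. A pair of further summits, with signals of 196 and 93.3, lay 1442 and 1238 bp upstream in introns of ERp60, whose start was nearer. eEF5 (FBgn0285952, 2R 24057798 to 24059483), the former eIF5A, which helps ribosomes through stretches of proline, had a signal of 178, with 82.9 and 85.0 in the replicates. Its intergenic summit (2R 24057626 to 24057961) lay 4 bp upstream of the start. At eEF1alpha1 and eEF5 the replicates nearly matched, and at eEF1gamma replicate 1 was higher.

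eEF2, the factor that moves the ribosome along, was unbound in the conservative list but not in every list. A summit 14 bp upstream of its start (2L 21681962 to 21682297) had a signal of 200.4 in the larger series-level list and 128 in replicate 1. Replicate 2 had no candidate at that place, the nearest being 920 bp away with a signal of 13.6, and the nearest conservative summit was 105018 bp from the gene. This was the strongest summit at any unbound member, and 1 library decides it. eEF1delta had a summit of 71.0 in the larger list, 1218 bp upstream. eEF1alpha2, eEF1beta and eEFSec had none in any list.

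Both release factor genes were bound just upstream of their own starts, and each faces a divergent neighbour. With 2 genes the interval was 34.2 to 100%, beside 23.1% of all coding genes, too few to read as a trait of the class. eRF3 (FBgn0020443, 2L 12434452 to 12441279), the GTPase of termination, had a signal of 161 (2L 12434103 to 12434438), with 64.6 and 92.4 in the replicates. Its summit was 181 bp upstream, in an intron of SC35. eRF1 (FBgn0036974, 3L 20348355 to 20353873), which reads the stop codons, had a signal of 139 at an intergenic summit 92 bp upstream (3L 20348095 to 20348430), between it and Rbbp5. Replicate 1 gave 55.1 there, and replicate 2 had no candidate within 100 bp, so the eRF1 site rests on 1 replicate and the series-level list.

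**Figure D3:**
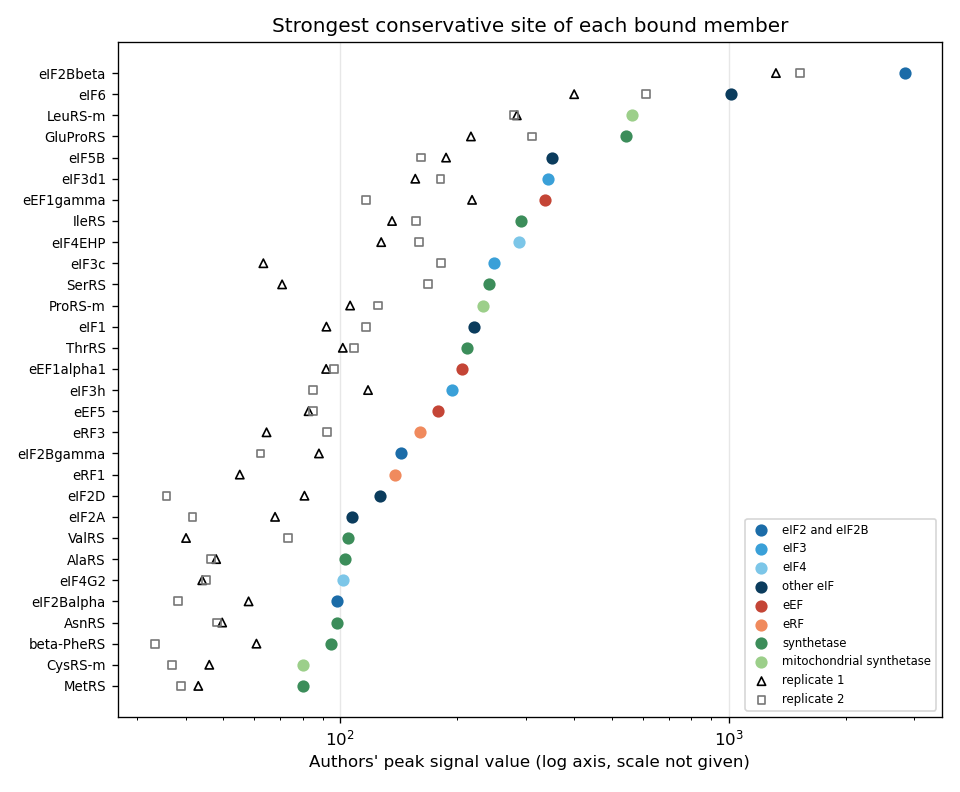
Signal of the strongest conservative site of each of the 30 bound members (filled circles, coloured by class) with the signals of the replicate candidates at that site (triangles for replicate 1, squares for replicate 2), on a log axis. Signals run from 2837 at eIF2Bbeta to 80.3 at MetRS, and eRF1 has no square because replicate 2 held no candidate there.

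The cytosolic synthetase genes had 9 of 20 members bound, most with modest signals and a median of 104.5. GluProRS (FBgn0005674, 3R 23952136 to 23958391) encodes a fused enzyme for glutamate and proline and had the highest, 543, with 217 and 311 in the replicates. That intergenic summit (3R 23958386 to 23958665) was 128 bp upstream, with AP-1sigma starting on the other strand 260 bp from GluProRS. IleRS (FBgn0027086, 3L 22288665 to 22292810) had a signal of 293, with 136 and 156 in the replicates. It was intergenic, 185 bp upstream (3L 22288418 to 22288582), with Hem 470 bp away on the other strand. At these strongest synthetase sites replicate 2 was higher.

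SerRS (FBgn0031497, 2L 3035493 to 3037403) had a signal of 242 at a summit 9 bp inside its 5' UTR (2L 3037226 to 3037561). In replicate 2 it had a signal of 168, but in replicate 1 only a candidate of 70.8 that missed the threshold. The start of CG17260 lies 8 bp from that of SerRS on the other strand. ThrRS had a signal of 212, with 102 and 109 in the replicates, 225 bp upstream. SerRS and ThrRS together with GluProRS, IleRS and beta-PheRS were the cytosolic synthetase genes with their own start nearest.

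The remaining bound cytosolic synthetase genes had weak sites, and most were nearer to another gene. ValRS had 3 sites of 104.5, 77.3 and 2.20, and the strongest was 404 bp upstream of ValRS and 109 bp upstream of Kdm4B. The weakest had no candidate in either replicate and was 1 of 22 conservative sites with a signal under 5. AlaRS had a signal of 103 at 1120 bp upstream, in the 5' UTR of Rcd4, and AsnRS had 97.8 at 1673 bp upstream, 144 bp from the start of Polr1D. In replicate 1 the candidates at AlaRS (47.9) and at the strongest ValRS site (40.1) missed the threshold. At AsnRS the replicate 2 candidate (48.2) missed it. beta-PheRS had 94.9 at 46 bp upstream, with 60.8 in replicate 1 and a candidate of 33.3 below the threshold in replicate 2. MetRS had 80.3 at 134 bp upstream, 111 bp from its neighbour CG15084, with 43.1 and 38.9 in the replicates.

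Unbound were ArgRS, AspRS, CysRS, GlnRS, GlyRS, HisRS, LeuRS, LysRS, TrpRS, TyrRS and alpha-PheRS. AspRS had summits of 86.1 and 85.8 in the larger series-level list, 234 and 1365 bp upstream. Replicate 1 held a summit of 63.0 at 1438 bp and replicate 2 a stronger and a weaker one of 50.1 and 16.4 at 216 and 12 bp, so the replicates supported different places. The other 10 had no summit in any list. beta-PheRS was bound and its partner subunit alpha-PheRS was not.

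Of the mitochondrial synthetase genes 3 of 15 were bound. LeuRS-m (FBgn0027085, 3L 4825853 to 4829038) had the strongest, 564 (3L 4824906 to 4825109), with close replicate signals of 285 and 281. It lay 858 bp upstream, in an intron of the dynein gene Dhc64C and 692 bp downstream of a start of that gene. ProRS-m (FBgn0027082, 3L 2650161 to 2651850) had a signal of 233, with 106 and 125 in the replicates, at an intergenic summit 127 bp upstream (3L 2651912 to 2652028), where Snup was nearer at 111 bp. CysRS-m (FBgn0033900, 2R 14159096 to 14161262) had 80.4 at 74 bp upstream (2R 14161168 to 14161503), nearest to its own start, with O-fut1 168 bp away. Its replicate candidates of 46.0 and 36.9 both missed the threshold.

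AlaRS-m, ArgRS-m, AsnRS-m, AspRS-m, GluRS-m, IleRS-m, MetRS-m, PheRS-m, SerRS-m, TrpRS-m, TyrRS-m and ValRS-m were unbound. SerRS-m had summits of 73.3 and 69.5 in the larger list and 1 of 47.5 in replicate 2, which was at another place. ArgRS-m had 1 of 59.2 in the larger list, 113 bp upstream. For proline, both the cytosolic GluProRS and the mitochondrial ProRS-m were bound. For leucine and cysteine the mitochondrial gene was bound and the cytosolic one was not. For alanine, asparagine, isoleucine, methionine, serine and valine the cytosolic gene was bound and the mitochondrial one was not. For glutamate, GluProRS was bound and GluRS-m was not. For phenylalanine, beta-PheRS was bound, and alpha-PheRS and PheRS-m were not.

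Most member sites were found in both replicates, but weak ones often rested on 1. Of 39 sites, 23 (59.0%) had a summit within 100 bp in both replicate lists, beside 61.6% of all conservative sites, 8 in replicate 1 only, 4 in replicate 2 only and 4 in neither. Candidates, which need not pass the threshold, were present in both replicates at 36 sites. At those 36 the ratio of replicate 1 to replicate 2 signal had a median of 0.996 and ran from 0.349 at eIF3c to 2.27 at eIF2D, with 18 sites higher in each replicate. At 5 sites the replicates were more than 2-fold apart. The conservative list was chosen for repeating ranks, so these values describe the sites and do not test repeatability.

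**Figure D4:**
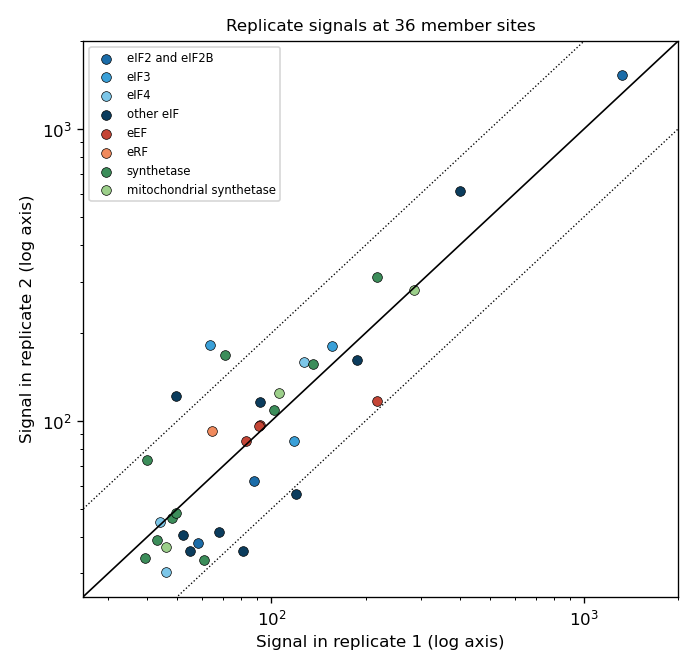
Signal in replicate 1 (horizontal) and replicate 2 (vertical) at the 36 member sites with a candidate in both, on log axes, coloured by class. The solid line marks equal signals and the dotted lines a 2-fold difference, and 5 sites lie outside the dotted lines.

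The unbound members were mostly without any called summit. Of 59, 50 had none in any of the 4 lists and 9 had 1 or more outside the conservative list, all described above. Bound and unbound together, 39 of the 89 members had a summit in any list, beside 4536 of the 13945 coding genes. In 46 of the 59 unbound members the window held a candidate in the ranked list behind the conservative list that did not pass. Candidates were not counted over all coding genes. The top signals in these 46 members had a median of 42.3 and a range of 21.4 to 86.1. The lowest strongest site of a bound member was 80.3 at MetRS. In that ranked list AspRS, at 86.1, was the single unbound member with a top candidate above it. The eEF2 candidate of 200.4 is in the ranked list of the larger set and not in this one.

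Base composition at member summits was close to that of the whole list. Within 50 bp of the summit the G+C content was 33.9% ± 12 (SD over 39 sites), and 32.6% ± 9.49 over all 3846. It ran from 13.9% at ProRS-m to 60.4% at a weak ValRS site. TTAAAA was at 12 member sites (30.8%) and 35.4% of all sites, and GATAA, the core bound by GATA factors, at 13 (33.3%) and 22.6%. Within 100 bp TTAAAA was at 61.5% of member sites and 51.5% of all sites, so its order turned with the width, and GATAA was at 53.8% and 39.1%. Both strands were searched, and a GATAA can overlap the end of TATCGATA.

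E-boxes were rare at the member sites. CAGATG, the E-box of Tal1-type proteins, was at 1 of 39 sites (2.56%), that of AlaRS, and at 2.81% of all sites. CAGCTG and CACGTG were at none, for which the Wilson upper bound is 8.97%, and at 2.89% and 0.546% of all sites. Within 100 bp CAGCTG was at 2 member sites (5.13%), those of eIF2Balpha and eIF2Bgamma, and at 8.35% of all sites. At that width CAGATG was at 2.56% of member sites and 6.29% of all sites, and CACGTG at none and 1.66%.

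A pair of promoter motifs known from housekeeping genes occurred at a few member sites. TATCGATA, the element of the factor Dref, was at 3 sites (7.69%, interval 2.65 to 20.3%), those of eEF1gamma, eIF1 and eIF2A, and at 0.988% of all sites. GGTCACAC, the core of the motif bound by M1BP, was also at 3 (7.69%), those of beta-PheRS, eEF1alpha1 and eIF2A, and at 0.546% of all sites. Within 100 bp TATCGATA was at 10.3% of member sites and 2.52% of all sites, and GGTCACAC at 7.69% and 1.48%. Such matches are letters in a window and not shown to be used, and whether member sites differ from other promoter sites was not tested.

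CTTT, the letters at the centre of the initiator of many ribosomal protein genes, lay on the gene's strand within 5 bases of a start at 11 members (12.4%) and 8.07% of all coding genes. It was at 4 of the 30 bound members (13.3%) and 7 of the 59 unbound ones (11.9%). Among the elongation factor genes eEF1alpha1, eEF2 and eEF5 had it. The shares of bound and unbound members were close.

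Genes of the pathway with other names were described in the same way. Of 36 names listed, 34 were matched, the other 2 were not used here, and 11 of the 34 were bound (32.4%, beside 23.1% of all coding genes). The difference was not tested. Among regulators of initiation 6 of 13 were bound (46.2%). PPP1R15, which directs a phosphatase to eIF2alpha, had a site of signal 1029, but its summit lay 1293 bp upstream and 253 bp upstream of Sox14. pAbp, the poly(A) binding protein, had 276, larp 156, the translational repressor cup 112, NAT1 109.5 and Paip2, an inhibitor of pAbp, 107. The cup summit lay 9700 bp downstream of the cup start and 296 bp upstream of CG34310. Thor, S6k, Gcn2, PEK, Lk6, mxt and crc were unbound.

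Among genes for the modification of eIF5A and eEF2, 2 of 4 were bound (50%, too few to read against the 23.1%). Dph2 had a signal of 256 at 118 bp upstream and Dph1 one of 231 at 132 bp upstream. Both act in making diphthamide, the modified residue of eEF2, and each had its own start nearest. The rescue factor pelo (113), the mitochondrial elongation factor mEFTu1 (78.3) and the synthetase helper AIMP1 (69.7) were the only bound genes of 4, 9 and 4 in their groups.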

How the data were processed

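ChIP-seq peak lists of HLH3B-eGFP embryos from 2 biological replicates of 1 group were used, on assembly dm6 per the labels. Chromatin had been sonicated to 200 to 800 bp, per the labels. The authors deposited thresholded and ranked lists, both per replicate and for 2 series-level sets. Each peak has a signal value, a score, a −log10 IDR (ranked lists) and a summit offset, all deposited by the authors. The score equals a rescaled IDR within 1 unit. Series-level candidates that passed were told by a score of 830 or above, the lowest in the conservative list. The signal served to order peaks within a list and to set the replicates side by side. The deposited notes say that thresholded lists were made with a further file the ranked lists did not use. The sources used here name no aligner or peak caller. Read counts are not part of the lists, so depth is unknown. No column of another sample was left unmapped (0).

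The summit was the peak start plus the offset. Genes came from Ensembl release 115 (BDGP6.54, 18164 genes). Of 30593 annotated start codons, 99.83% read ATG in the RefSeq Release 6 sequence, and all peaks fitted the arms, so the builds share coordinates. Sites were matched between lists within 100 bp. Motif searches covered either strand within 50 bp of summits. No difference was tested, since 1 group allows no comparison of conditions, and Wilson 95% intervals cover counting error only. Gene assignment was tested on simulated data. The members and lists were chosen with earlier results of these data known. All bound members are named, and full values are given for the 12 with the highest signal and the 3 highest of each class. Alternatives covered the lists, each replicate alone, a signal cut, windows, assignment, overlap and motif width. Divergent neighbours and CTTT were added after values were seen. Python 3.11.15, pandas 2.3.3, numpy 2.4.6, scipy 1.17.1 and matplotlib 3.10.9 were used.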

Additional observations from a re-analysis of the deposited data

Results flagged for a closer look

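Signal appeared at eIF4EHP in peaks that none of the member counts use. Of the ranked candidates behind the conservative list, 71 passed the IDR threshold but are absent from that list, and eIF4EHP is the only member with any, with 2 of them. The stronger (3R 24109019 to 24109381) had a signal of 1091, with replicate candidates of 562 and 525, and would rank 45 among all candidates. Its summit lay 245 bp upstream of eIF4EHP and 131 bp upstream of CG18428. The weaker (3R 24106282 to 24106617) had a signal of 96.4, with replicate candidates of 56.5 and 41.9, and lay 2510 bp downstream of the eIF4EHP start and 687 bp upstream of Syx1A. Neither is in any thresholded list. Thresholded lists were made with a further file that the ranked lists did not use, and its part in this was not tested.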

How the results depend on the processing

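Of 103 alternatives computed, 64 kept their value within the set limits and 39 moved. Against all coding genes the members turned from above (33.7% and 23.1%) to below (7.87% and 10.2%) with the gene body alone. TTAAAA turned against all sites from below (30.8% and 35.4%) within 50 bp to above (61.5% and 51.5%) within 100 bp. Beside the 30 bound members, the sites above the median signal gave 19, the gene body alone 7 and the nearest start 16. Initiation factors went from 13 to 5 with the body alone and to 5 with the nearest start, elongation and release factors from 5 to 1 with the body alone, and cytosolic synthetases from 9 to 4, 1 and 5 with the higher signals, the body alone and the nearest start. Mitochondrial synthetases went from 3 to 5 in the larger list, 0 with the body alone and 1 with the nearest start. Related genes went from 11 to 17 in the larger list, and to 5 both with the higher signals and with the body alone. The percent of all coding genes, 23.1, was 30.6 in the larger list, 22.5 to 23.2 with each replicate left out, 14.5 with the higher signals, 20.5 with 1000 bp and 19.3 with 500 bp upstream, 10.2 with the body alone, 16.9 within 1000 bp of a start, 16.5 with the nearest start and 23.8 by peak overlap. Sites near a member start, 25, became 16 with the higher signals, 5 with the body alone and 16 with the nearest start. These settings by construction admit fewer or more sites. Sites in both replicates rose from 23 to 36 when candidates counted. Mean G+C was 35.6% within 100 bp of summits. Windows and assignment moved the member counts most among the settings run. No paired analysis was possible because there is 1 group and no test.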
